A study of Mus musculus with 18 samples.

Results

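A set of 38 genes of DNA replication and mitosis was followed in MC38 cells depleted of Mbtps1 and in tumours grown from them. The genes were chosen by name, and all 38 were found among the 15596 symbols of the gene table. A class of 20 acts before or during S phase (Mcm2 to Mcm7, Mcm10, Cdc6, Cdt1, Cdc45, Gins1, Gins2, Pcna, Rrm1, Rrm2, Tyms, Tk1, Ccne1, Ccne2 and E2f1). The other 18 act mainly in G2 and mitosis (Mki67, Top2a, Cdk1, Ccna2, Ccnb1, Ccnb2, Bub1, Bub1b, Aurka, Aurkb, Plk1, Cdc20, Cenpe, Cenpf, Kif11, Kif20a, Ttk and Birc5). MC38 is a mouse colon adenocarcinoma line that grows as a tumour in C57BL/6 mice, and Mbtps1 encodes site-1 protease, which cuts membrane-bound transcription factors in the Golgi. The 16 RNA sequencing libraries fell into 4 groups: Mbtps1 knockdown cells in culture (n = 3), control cells in culture (genotype Mbtps1 WT, n = 3), Mbtps1 knockdown tumours (n = 5) and control tumours (Mbtps1 WT, n = 5). Hosts of the tumours were wild-type C57BL/6 mice, per the series' design text. That text names the depleted cells of the culture part a knockout, while the labels of the samples name both parts a knockdown. The labels give neither the way Mbtps1 was depleted, nor whether the depleted line was 1 clone, nor the age of the mice or the time of growth.

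A dividing cell copies its genome once. In G1, Cdc6 and Cdt1 load the ring-shaped Mcm2 to Mcm7 helicase onto origins; at the onset of S phase, cyclin E, Cdc45, Mcm10 and the GINS complex turn it into a moving fork, while Pcna clamps the polymerases to DNA and Rrm1, Rrm2, Tyms and Tk1 supply nucleotides. In mitosis, Cdk1 with its cyclins, the Aurora and Polo kinases, the checkpoint kinases Bub1 and Ttk, the motors Kif11 and Cenpe and the ubiquitin ligase activator Cdc20 condense, align and part the chromosomes. Transcription of the S phase genes is known to depend on E2F factors, and that of the mitotic genes on the MuvB complex with B-Myb and FoxM1, which binds an element called the cell cycle genes homology region (CHR), often near CCAAT boxes bound by NF-Y.

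Both promoter elements were looked for in RefSeq promoter windows of GRCm38.p6, from 250 bases before to 50 after the annotated start, on both strands. A window was given for 31 of the 38 genes, 16 of S phase and 15 of mitosis, and a gene with several starts was counted once if any of its windows held the word. E2F words (TTCCCGC or TTCGCGC, else TTGCCGC or TTGGCGC) were found in 8 of 16 S phase genes (50%), in 3 of 15 mitotic genes (20%) and in 10.9% of 27025 genes with a window. CHR words (TTTGAA or TTCGAA) were found in 3 of 16 S phase genes (18.8%), in 12 of 15 mitotic genes (80.0%) and in 21.7% of all. The CCAAT word was in 10 S phase genes (62.5%), in 14 mitotic genes (93.3%) and in 41.1% of all. Words of different motifs can overlap, as can an E2F word and its reverse complement. A match is a run of letters and not a binding site. The windows of Mcm7 and Mcm6, helicase subunits with several E2F words, are shown beside those of Top2a, Bub1 and Ttk. Each is cut off 30 bases after the start and runs 5′ to 3′ on the strand of the gene. Top2a, Bub1 and Ttk are among the 5 mitotic genes that passed lower in culture and higher in tumours below. Of these 5, Cenpe held no CHR word and Ccna2 had no window. Cdc20 and Plk1, which passed lower in tumours, held 1 CHR word each. Capitals mark E2F words in Mcm7 (chr5:138171854-138172133, minus strand) and Mcm6 (chr1:128359676-128359955, minus strand). They mark CHR words in Top2a (chr11:99024160-99024439, minus strand), Bub1 (chr2:127831830-127832109, minus strand) and Ttk (chr9:83834439-83834718, plus strand).
Mcm7: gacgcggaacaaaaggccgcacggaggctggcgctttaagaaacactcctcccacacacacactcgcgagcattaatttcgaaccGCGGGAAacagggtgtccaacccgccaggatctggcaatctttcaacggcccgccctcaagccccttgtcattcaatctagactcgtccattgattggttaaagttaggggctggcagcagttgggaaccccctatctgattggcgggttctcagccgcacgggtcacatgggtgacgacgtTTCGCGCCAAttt
Mcm6: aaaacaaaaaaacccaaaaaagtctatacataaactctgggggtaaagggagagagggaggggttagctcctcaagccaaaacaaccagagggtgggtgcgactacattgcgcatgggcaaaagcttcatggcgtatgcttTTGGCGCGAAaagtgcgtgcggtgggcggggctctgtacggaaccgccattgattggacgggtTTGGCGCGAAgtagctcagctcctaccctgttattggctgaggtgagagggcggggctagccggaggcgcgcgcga
Top2a: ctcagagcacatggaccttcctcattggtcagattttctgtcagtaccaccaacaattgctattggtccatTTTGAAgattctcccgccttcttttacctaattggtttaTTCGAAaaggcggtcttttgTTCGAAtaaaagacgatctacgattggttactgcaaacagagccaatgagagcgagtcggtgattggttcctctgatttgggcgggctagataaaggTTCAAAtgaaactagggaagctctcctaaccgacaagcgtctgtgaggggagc
Bub1: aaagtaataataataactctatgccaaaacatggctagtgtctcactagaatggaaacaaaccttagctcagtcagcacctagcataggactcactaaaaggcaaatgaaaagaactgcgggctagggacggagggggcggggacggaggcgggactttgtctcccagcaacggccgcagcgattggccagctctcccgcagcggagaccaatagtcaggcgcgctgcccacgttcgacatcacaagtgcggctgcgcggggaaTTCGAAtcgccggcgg
Ttk: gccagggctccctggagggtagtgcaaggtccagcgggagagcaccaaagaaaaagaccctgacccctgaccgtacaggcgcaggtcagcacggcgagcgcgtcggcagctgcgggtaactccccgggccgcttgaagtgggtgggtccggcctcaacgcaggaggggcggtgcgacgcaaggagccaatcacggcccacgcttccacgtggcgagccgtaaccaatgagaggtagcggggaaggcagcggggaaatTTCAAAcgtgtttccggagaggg
Counted from the start site as base 1, the words of Mcm7 begin at -165, 18 and 21, those at 18 and 21 overlapping on opposite strands. Mcm6 carries overlapping pairs that begin at -109 and -106 and at -46 and -43. A further E2F word of Mcm6, at 25, runs past the cut and is not marked. No GENCODE M21 transcript of Mcm6 held the last 30 bases shown, so its positions rest on the RefSeq start. Top2a has 4 CHR words, at -179, -140, -120 and -23, while Bub1 and Ttk have 1 each, at 15 and 8. Whether any of these words is bound in MC38 was not measured.

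**Figure D1:**
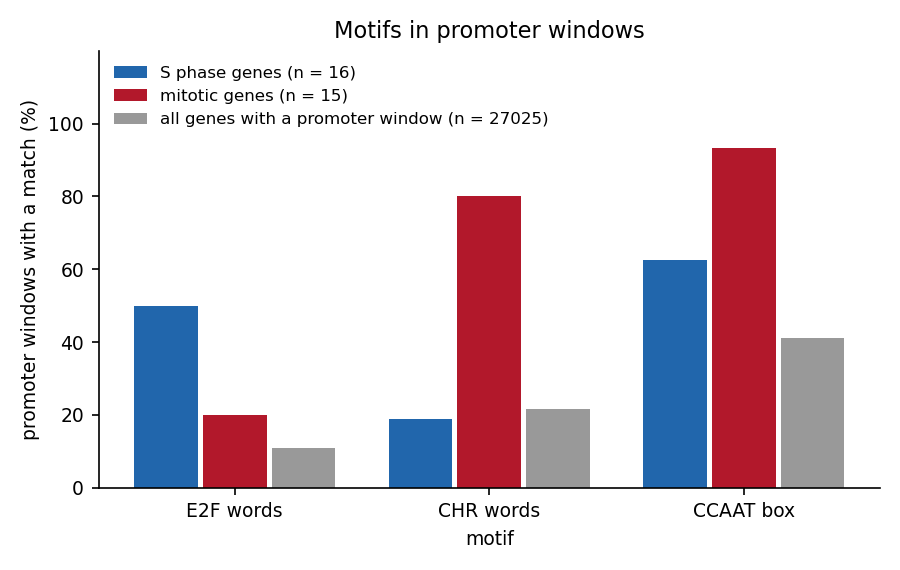
Share of promoter windows (%) with at least 1 E2F word, CHR word or CCAAT word in S phase genes (n = 16), mitotic genes (n = 15) and all genes with a window (n = 27025). E2F words were more frequent among S phase genes (50%) and CHR words among mitotic genes (80.0%) than over all windows (10.9% and 21.7%).

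Levels are given as CPM, the counts of a gene relative to all counts of its library. Total counts ran from 14931689 to 15515405 in knockdown cells, from 14240353 to 15155599 in control cells, from 22257519 to 32655739 in knockdown tumours and from 19630410 to 28316572 in control tumours, and the lowest count of any of the 38 genes in a library was 147. Mbtps1 itself stood at 37, 35.7 and 34.8 CPM in knockdown cells, against 129, 135 and 118 in control cells, and at 41.4 to 57.1 CPM in knockdown tumours, against 110 to 130 in control tumours. The targeted gene thus differed as the labels say, by -1.84 (SE 0.09) and -1.21 (SE 0.09) on the log2 scale. No replicate pair agreed within counting noise (lowest chi-square per degree of freedom 6.10). Whether replicates were grown as separate cultures or mice is not stated; p-values therefore cover the variation among the libraries at hand, part of which may be technical. Of 9 epithelial markers, 4 were among the symbols of the table, and Epcam, Krt20 and Cdh1 were listed at 0 in the cultured cells, whose summed level for the list was 1.94 to 3.29 CPM under knockdown and 1.26 to 3.76 in controls. In tumours that list summed to 3.18 to 7.32 CPM under knockdown and 4.08 to 6.75 in controls, with Krt8 listed at 0. Rarely counted genes are listed at 0 throughout a part, the lowest sum above 0 being 13 counts in cells and 15 in tumours. Libraries of knockdown tumours held more mitochondrial mRNA, 2.88 to 7.07% of counts against 1.503 to 2.78% in control tumours, with replicates 3 and 5 (7.07 and 5.77%) above the rest. Cells had 3.66 to 4.84% under knockdown and 3.64 to 4.60% in controls.

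In culture the S phase class stood higher and the mitotic class lower under knockdown. The mean log2 CPM over the 20 S phase genes was 7.06, 7.03 and 7.04 in knockdown cells, against 6.78, 6.80 and 6.995 in control cells. Over the 18 mitotic genes it was 7.31, 7.38 and 7.30 in knockdown cells, against 7.47, 7.47 and 7.50 in control cells. On library totals, the groups did not overlap in either class, with S phase genes higher and mitotic genes lower under knockdown. Control replicate 3 lay closest to the knockdown libraries in S phase genes. With library sizes scaled by TMM over all 16 libraries, its S phase mean (6.952) lay above that of knockdown replicate 3 (6.94). Mitotic means did not overlap under that scaling either, at 7.198 to 7.327 in knockdown and 7.382 to 7.454 in control cells. The mitotic mean minus the S phase mean was 0.29 ± 0.06 log2 units in knockdown cells and 0.62 ± 0.10 in control cells (SD, n = 3 each). In tumours the same difference was 0.17 ± 0.11 under knockdown and 0.15 ± 0.11 in controls (SD, n = 5 each), and the groups overlapped. Knockdown tumours had S phase means of 5.98 to 6.33, against 5.94 to 6.14 in control tumours, and mitotic means of 6.26 to 6.48, against 6.12 to 6.30. On library totals, tumour groups overlapped in both classes. With library sizes scaled by TMM over all 16 libraries, they still overlapped in S phase means. Mitotic means then did not overlap, at 6.35 to 6.47 in knockdown and 6.17 to 6.305 in control tumours. No test was made of these class means, since the genes were chosen with results of these data known. Summed over the class, S phase genes gave 3915 to 3975 CPM in knockdown cells, 3131 to 3655 in control cells, 1619 to 2095 in knockdown tumours and 1657 to 1893 in control tumours. Mitotic genes gave 3388 to 3774 CPM in knockdown cells, 3984 to 4151 in control cells, 1796 to 2010 in knockdown tumours and 1541 to 1749 in control tumours. In tumours the groups overlapped in the S phase sum and not in the mitotic sum. In bulk libraries, fewer cells in a phase and less mRNA per cell cannot be told apart.

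**Figure D2:**
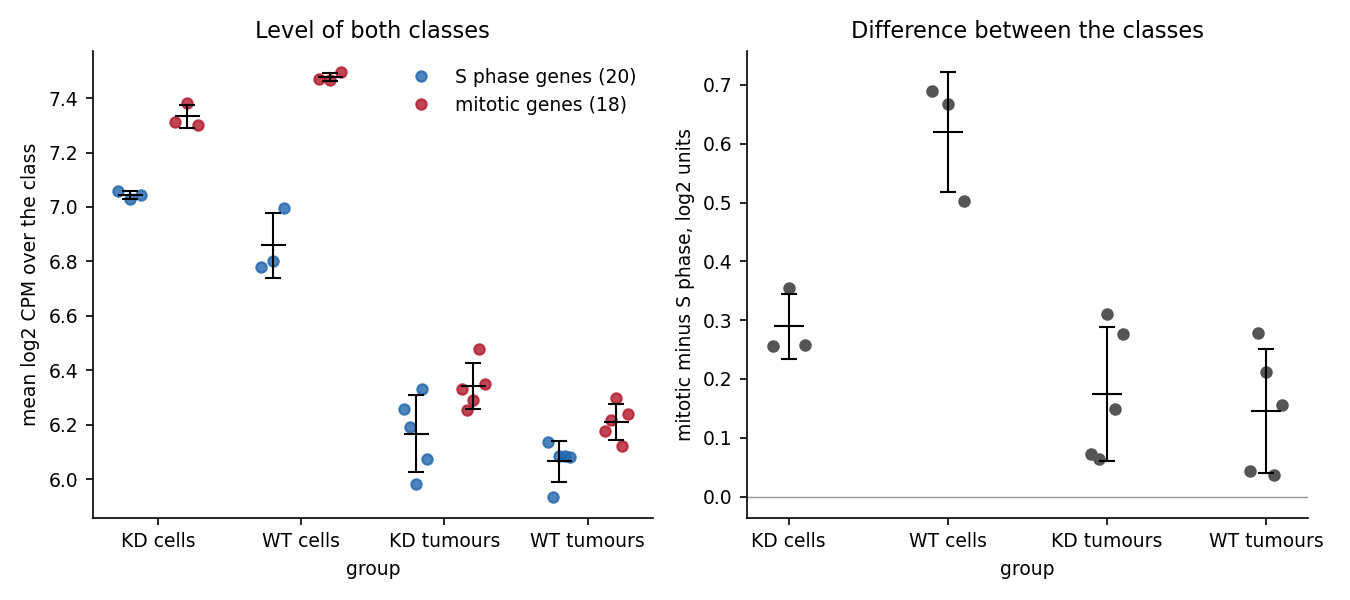
Left, mean log2 CPM over the 20 S phase genes (blue) and the 18 mitotic genes (red) in each library, with the mean and SD of the group as bars. Right, the mitotic mean minus the S phase mean, which was 0.26 to 0.35 in knockdown cells, 0.50 to 0.69 in control cells, 0.06 to 0.31 in knockdown tumours and 0.04 to 0.28 in control tumours.

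In culture, the first question was which of the 38 genes differed between Mbtps1 knockdown and control cells. The helicase subunits Mcm2, Mcm3 and Mcm7 and the loader Cdt1 rose, with the small subunit of ribonucleotide reductase and E2f1, while a group of mitotic genes led by Cenpe, Bub1 and Top2a fell. By edgeR's quasi-likelihood test at an adjusted p below 0.05, 6 of 20 S phase genes were higher and 5 of 18 mitotic genes were lower. Over all 11905 genes tested, 9.33% passed, 3.76% higher and 5.57% lower. S phase genes that passed lower numbered 0, with 3 lower at an unadjusted p below 0.05 and 0 by DESeq2, which called 7 higher. Mitotic genes that passed higher numbered 0, with 0 at an unadjusted p below 0.05 and 0 by DESeq2, which called 5 lower. The median log2 fold change was 0.23 over S phase genes and -0.08 over mitotic genes, beside 0.01 over all genes tested. Groups did not overlap, with knockdown higher, in 11 S phase and 2 mitotic genes (16% of all genes) and, with knockdown lower, in 3 S phase and 8 mitotic genes (15.8% of all, and 31.8% in either direction). These calls rested on few libraries: 0 of the 38 genes passed without control replicate 1 or without knockdown replicate 1, when 290 and 330 of all genes passed. Only Bub1 passed without control replicate 2, and 8 genes passed without control replicate 3. Every gene called kept its direction in these fits.

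Among the licensing genes, Mcm2 stood at 292, 293 and 298 CPM in knockdown cells, against 218, 219 and 231 CPM in control cells, which is 0.39 higher on the log2 scale (SE 0.09, adjusted p = 0.017; the values in brackets below are log2 fold changes in the same form). Mcm3 stood at 398, 405 and 380 CPM in knockdown cells and at 277, 289 and 336 in control cells (0.38, SE 0.10, adjusted p = 0.0364), and Mcm7 at 309, 313 and 336 against 236, 252 and 258 (0.35, SE 0.09, adjusted p = 0.0303). In all 3, the lowest knockdown library lay above the highest control library. Cdt1, which loads the helicase, had 128, 139 and 139 CPM in knockdown cells and 98.9, 96.5 and 105 in control cells (0.42, SE 0.09, adjusted p = 0.015). Mcm5 and Mcm6 were also higher in every knockdown library but did not pass, with log2 fold changes of 0.36 (adjusted p = 0.0505) and 0.21 (adjusted p = 0.187). Mcm4 did not follow the other subunits: its 231, 240 and 220 CPM under knockdown overlapped with 215, 207 and 246 in controls. Cdc6, the other loader, overlapped too (67.0 to 78.0 CPM against 54.1 to 77.5), the highest control value being that of replicate 3.

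Helicase activators did not pass in culture. Gins1 and Gins2, subunits of the GINS complex, were higher in all knockdown libraries without passing (0.30, adjusted p = 0.15, and 0.25, adjusted p = 0.143). Cdc45, which travels with them, was at 74.4, 64.0 and 71.3 CPM in knockdown cells and at 76.7, 80.2 and 89.5 in control cells (-0.24, adjusted p = 0.155). Mcm10, a scaffold of the fork, overlapped between groups at 65.2 to 80.3 CPM under knockdown and 67.4 to 88.8 in controls. Gins1, Gins2 and Cdc45 did not overlap between groups, the GINS subunits on the high side of the control and Cdc45 on the low side.

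Nucleotide supply was led by Rrm2, the regulated subunit of ribonucleotide reductase, with 633, 613 and 574 CPM in knockdown cells and 394, 409 and 524 in control cells (0.445, SE 0.12, adjusted p = 0.0367). Rrm1, the large subunit, had 333 to 390 CPM under knockdown and 346 to 404 in controls. Thymidylate synthase (Tyms), at 45.6, 46.1 and 40.0 CPM against 34, 35.7 and 34.8, was higher without overlap but did not pass (0.33, SE 0.10, adjusted p = 0.0722). Thymidine kinase Tk1 (114 to 141 CPM against 100 to 123) and the clamp Pcna (336 to 384 against 297 to 346) overlapped. E2f1, itself an activator of S phase genes, was at 97.1, 96.3 and 113 CPM in knockdown cells and at 75.1, 74.8 and 78.4 in control cells (0.41, SE 0.10, adjusted p = 0.0219). The E-type cyclins, which start S phase with Cdk2, lay on the other side. Ccne1 (25.2 to 30.9 CPM against 31.9 to 42.2) and Ccne2 (36.0 to 44.5 against 45.7 to 55.0) were lower in every knockdown library, with log2 fold changes of -0.36 (adjusted p = 0.114) and -0.31 (adjusted p = 0.12).

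Of the mitotic genes, Cenpe, the kinesin that moves chromosomes to the spindle equator, had 119, 159 and 108 CPM in knockdown cells and 183, 174 and 183 in control cells (-0.49, SE 0.13, adjusted p = 0.0378). Bub1, a checkpoint kinase at kinetochores, had 125, 128 and 111 CPM in knockdown cells and 174, 162 and 161 in control cells (-0.46, SE 0.09, adjusted p = 0.0121). Top2a, which untangles sister chromatids, had 710, 772 and 633 CPM in knockdown cells and 957, 874 and 966 in control cells (-0.41, SE 0.10, adjusted p = 0.0281). Knockdown replicate 2 was the highest of its group in these 3 genes and still lay below every control library. Ttk, the kinase that starts checkpoint signalling, stood at 39.0, 39.8 and 37 CPM against 48.3, 47.4 and 51.3 (-0.35, SE 0.10, adjusted p = 0.0437). The cyclin of S phase and G2, Ccna2, stood at 188, 182 and 187 CPM against 231, 221 and 251 (-0.34, SE 0.09, adjusted p = 0.036). The kinetochore protein Cenpf (-0.34, adjusted p = 0.0925) and the spindle motor Kif11 (-0.28, adjusted p = 0.108) did not pass, although their groups did not overlap. The proliferation marker Mki67 had 429, 547 and 367 CPM in knockdown cells and 554, 529 and 544 in control cells (-0.29, adjusted p = 0.189), knockdown replicate 2 lying within the control range.

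Cdk1 and most of its partners did not pass in culture. Cdk1, the mitotic kinase, had 227, 218 and 252 CPM in knockdown cells and 187, 202 and 214 in control cells (0.20, adjusted p = 0.209). Its partners Ccnb1 (235 to 249 CPM against 236 to 263) and Ccnb2 (88.5 to 101 against 83.6 to 99.6) overlapped between groups. So did Plk1 (107 to 123 CPM against 109 to 125), Aurkb (84.5 to 106 against 85.6 to 94.8), Bub1b (166 to 175 against 162 to 192) and the anaphase activator Cdc20 (160 to 203 against 160 to 181). Aurka, at 97.4 to 106 CPM under knockdown and 106 to 107 in controls, differed by -0.09 (adjusted p = 0.542). Kif20a, a motor of cytokinesis, and Birc5, which targets Aurora B to centromeres, had log2 fold changes of 0.06 and 0.10 (adjusted p = 0.678 and 0.573).

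**Figure D3:**
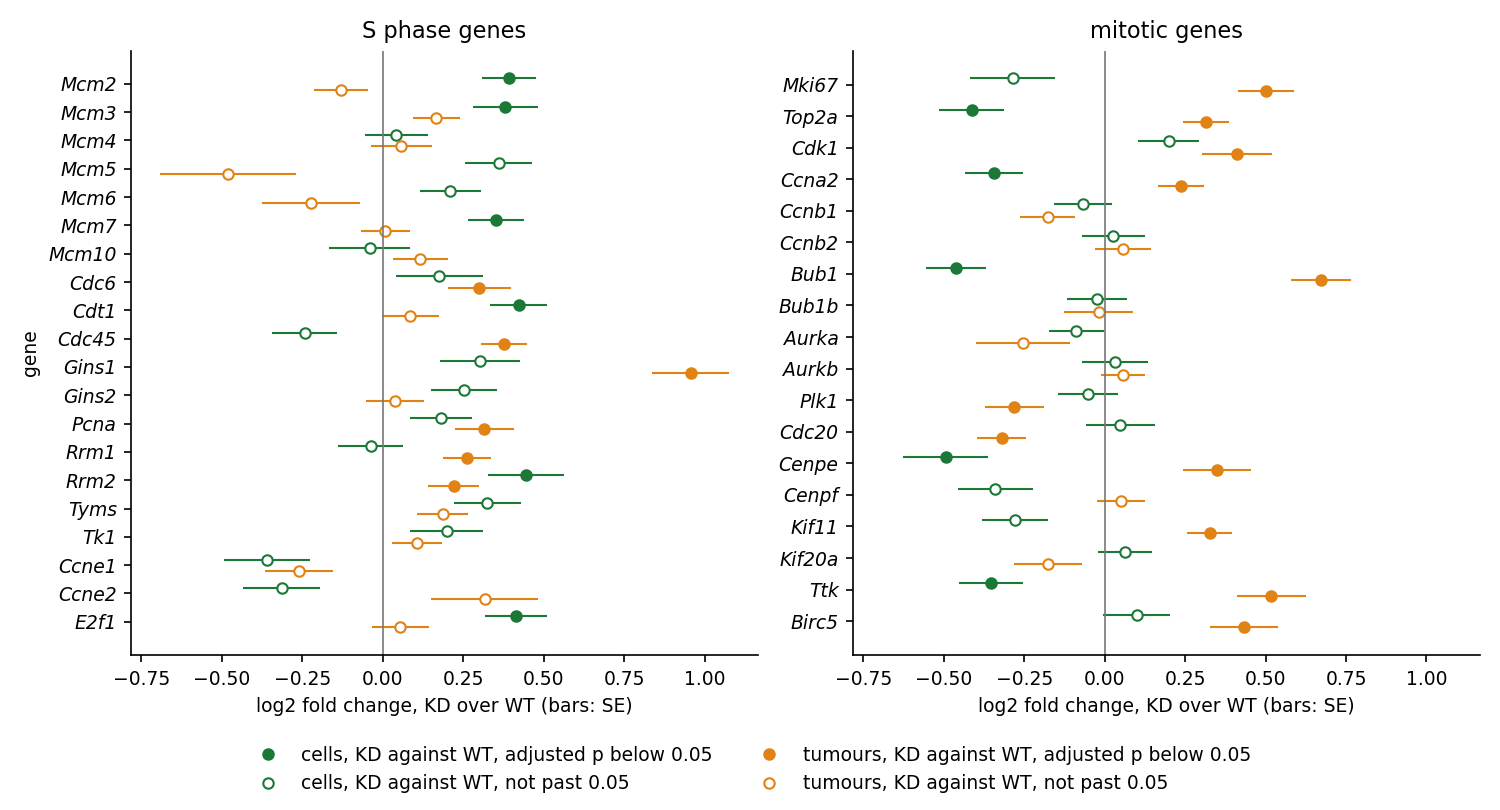
Log2 fold change of each gene, knockdown over control, with its SE, in cultured cells (green) and tumours (orange), S phase genes on the left and mitotic genes on the right. Filled points passed an adjusted p of 0.05, which 6 S phase and 5 mitotic genes did in cells and 6 and 11 did in tumours.

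In tumours, the same contrast gave a different set. Gins1, Cdc45 and 4 other S phase genes rose, and mitotic genes rose as well, among them Bub1, Ttk, Mki67 and Birc5, while Plk1 and Cdc20 fell. Of 20 S phase genes 6 were higher, and of 18 mitotic genes 9 were higher and 2 lower, where 38.4% of all 13997 genes tested passed, 20.1% higher and 18.3% lower. Read against that background, 6 of 20 was not far above the share over all genes, while 9 of 18 was above it. S phase genes that passed lower numbered 0, with 2 at an unadjusted p below 0.05 and 1 by DESeq2. The median log2 fold change was 0.11 over S phase genes and 0.15 over mitotic genes, beside 0.02 over all genes tested. Without overlap, 2 S phase and 6 mitotic genes were higher and 1 mitotic gene was lower, where 22.6% of all genes were without overlap, 11.3% in each direction. Host cells add RNA to these libraries. Markers of T and NK cells (12 of 13 in the table, all at 0 in culture) summed to 285 to 365 CPM in knockdown tumours and 117 to 189 in control tumours, and 11 of the 12 passed higher. Macrophage markers summed to 2280 to 4120 CPM against 2280 to 4370 and endothelial markers to 79.2 to 119 against 100 to 142. Of 10 macrophage markers 2 passed higher and 0 lower, and of 7 endothelial markers 0 passed higher and 3 lower. Fibroblast and mural markers summed to 2480 to 3250 CPM against 3260 to 4170, and of 7 in the list 0 passed higher and 4 lower. That list also summed to 1020 to 1230 CPM in cultured knockdown cells and 1070 to 1790 in cultured control cells, so it does not mark host cells alone. The part of host cells in the level of the 38 genes was not tested.

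Gins1 had 22.5, 28.8, 28.0, 22.9 and 33.1 CPM in knockdown tumours, against 15.1, 14.5, 14.6, 12.8 and 13.6 CPM in control tumours. Every knockdown library lay above the highest control (0.96, SE 0.12, adjusted p = 1.72e-04), and Gins1 had the largest fold change of the 38 genes in either knockdown comparison. Cdc45 had 59.5, 56.7, 63.4, 61.4 and 56.1 CPM in knockdown tumours and 46.2, 44.4, 44.7, 49.3 and 46.9 in control tumours (0.38, SE 0.07, adjusted p = 0.00185), again without overlap. Gins2, of the same complex as Gins1, overlapped at 56.3 to 69.6 CPM against 54.4 to 68.5. The other S phase genes that passed overlapped between the groups: Pcna at 156 to 218 CPM against 136 to 170 (0.32, adjusted p = 0.0173), Cdc6 at 19.9 to 29.1 against 17.4 to 21.2 (0.30, adjusted p = 0.0272), Rrm1 at 139 to 166 against 116 to 140 (0.26, adjusted p = 0.0149) and Rrm2 at 117 to 160 against 115 to 126 (0.22, adjusted p = 0.0412). Cdc6 and Rrm2 lost their calls on leaving out single libraries. Cdc6 did not pass without control replicate 2 or 3 or knockdown replicate 2 or 4, and Rrm2 passed only when knockdown replicate 3 or 5 was the library left out.

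The helicase subunits that rose in culture did not pass in tumours, although Mcm3 did once GC content and length were corrected (0.29, adjusted p = 0.00414). Mcm5 had 148, 95.9, 64.2, 136 and 64.2 CPM in knockdown tumours and 165, 109, 155, 144 and 139 in control tumours (-0.48, SE 0.21, adjusted p = 0.085). Knockdown replicates 3 and 5, the libraries with the most mitochondrial mRNA, were the low ones, and they were also lowest in Mcm6 (139 and 151 CPM, against 221 to 260 in the other knockdown and 194 to 257 in the control tumours) and in Aurka (29.5 and 29.1 CPM, against 40.1 to 50.8 and 41.7 to 53.8). The part of that mRNA share in these values was not tested. Mcm2 (117 to 150 CPM against 125 to 157), Mcm4 (66.6 to 106 against 78.0 to 86.3) and Mcm7 (139 to 163 against 142 to 164) overlapped between groups, and Mcm3 (159 to 190 against 135 to 165) differed by 0.17 (adjusted p = 0.0864). Cdt1 (62.8 to 75.6 CPM against 60.5 to 78.9), Tyms (34.7 to 41.1 against 30.6 to 36.0), Tk1 (105 to 124 against 102 to 118), Mcm10 (39.0 to 45.7 against 31.8 to 43.1), E2f1 (63.8 to 83.8 against 62.1 to 78.5), Ccne1 (23.0 to 31.7 against 30.3 to 37.2) and Ccne2 (7.75 to 13.8 against 6.74 to 11.5) did not pass either.

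Bub1 led the mitotic genes, with 44.9, 45.3, 49.6, 47.2 and 53.2 CPM in knockdown tumours, against 25.5, 31.9, 33.7, 28.5 and 32.9 in control tumours (0.67, SE 0.09, adjusted p = 2.97e-04). Ttk had 18.2, 17.5, 19.0, 21.7 and 25.4 CPM in knockdown tumours and 13.6, 15, 14.9, 13.1 and 15 in control tumours (0.52, SE 0.11, adjusted p = 0.00288). Mki67 had 281, 274, 281, 261 and 288 CPM in knockdown tumours and 176, 208, 218, 177 and 211 in control tumours (0.50, SE 0.09, adjusted p = 9.6e-04). In each of these 3 genes all 5 knockdown tumours lay above all 5 control tumours. Birc5 had 135, 161, 163, 135 and 161 CPM in knockdown tumours and 137, 106, 111, 96.7 and 116 in control tumours (0.43, SE 0.11, adjusted p = 0.00702), control replicate 1 alone reaching into the knockdown range. Cdk1 stood at 111 to 151 CPM against 87.2 to 119 (0.41, adjusted p = 0.0101), Cenpe at 52.4 to 72.2 against 42.3 to 54.9 (0.35, adjusted p = 0.0205), Kif11 at 77.1 to 83.9 against 61.8 to 70.5 (0.33, adjusted p = 0.00318), Top2a at 364 to 410 against 287 to 334 (0.31, adjusted p = 0.00472) and Ccna2 at 142 to 147 against 109 to 132 (0.24, adjusted p = 0.0205). Kif11, Top2a and Ccna2 did not overlap between the groups. Cenpe did not pass without control replicate 4 or knockdown replicate 5, and Ccna2 did not pass without control replicate 4.

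Cdc20 and Plk1 went the other way. Cdc20, which starts anaphase, had 88.0, 78.9, 79.0, 106 and 84.6 CPM in knockdown tumours and 111, 107, 111, 112 and 107 in control tumours (-0.32, SE 0.08, adjusted p = 0.00619), without overlap. Plk1, which acts from mitotic entry to cytokinesis, had 46.9, 45.0, 50.8, 64.9 and 54.2 CPM in knockdown tumours and 60.5, 68.0, 63.2, 67.4 and 61.5 in control tumours (-0.28, SE 0.09, adjusted p = 0.0287). Knockdown replicate 4 was the highest of its group in both and reached into the control range for Plk1. Plk1 did not pass without control replicate 2 or 4 or knockdown replicate 1 or 2. Ccnb1 (68.7 to 96.2 CPM against 86.6 to 102), Ccnb2 (57.4 to 72.3 against 57.6 to 71.4), Bub1b (49.2 to 80.2 against 61.0 to 73.1), Aurkb (68.1 to 77.7 against 64.9 to 72.9), Cenpf (62.9 to 75.8 against 62.0 to 74.5) and Kif20a (50.5 to 77.4 against 61.6 to 78.8) did not pass, nor did Aurka. Without knockdown replicates 3 and 5, an alternative chosen after seeing the data, 14 of the 38 genes passed, and Cdk1, Ccna2, Plk1 and Cenpe were no longer among them. Over all genes 3754 passed in that fit, in place of 5377.

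**Figure D4:**
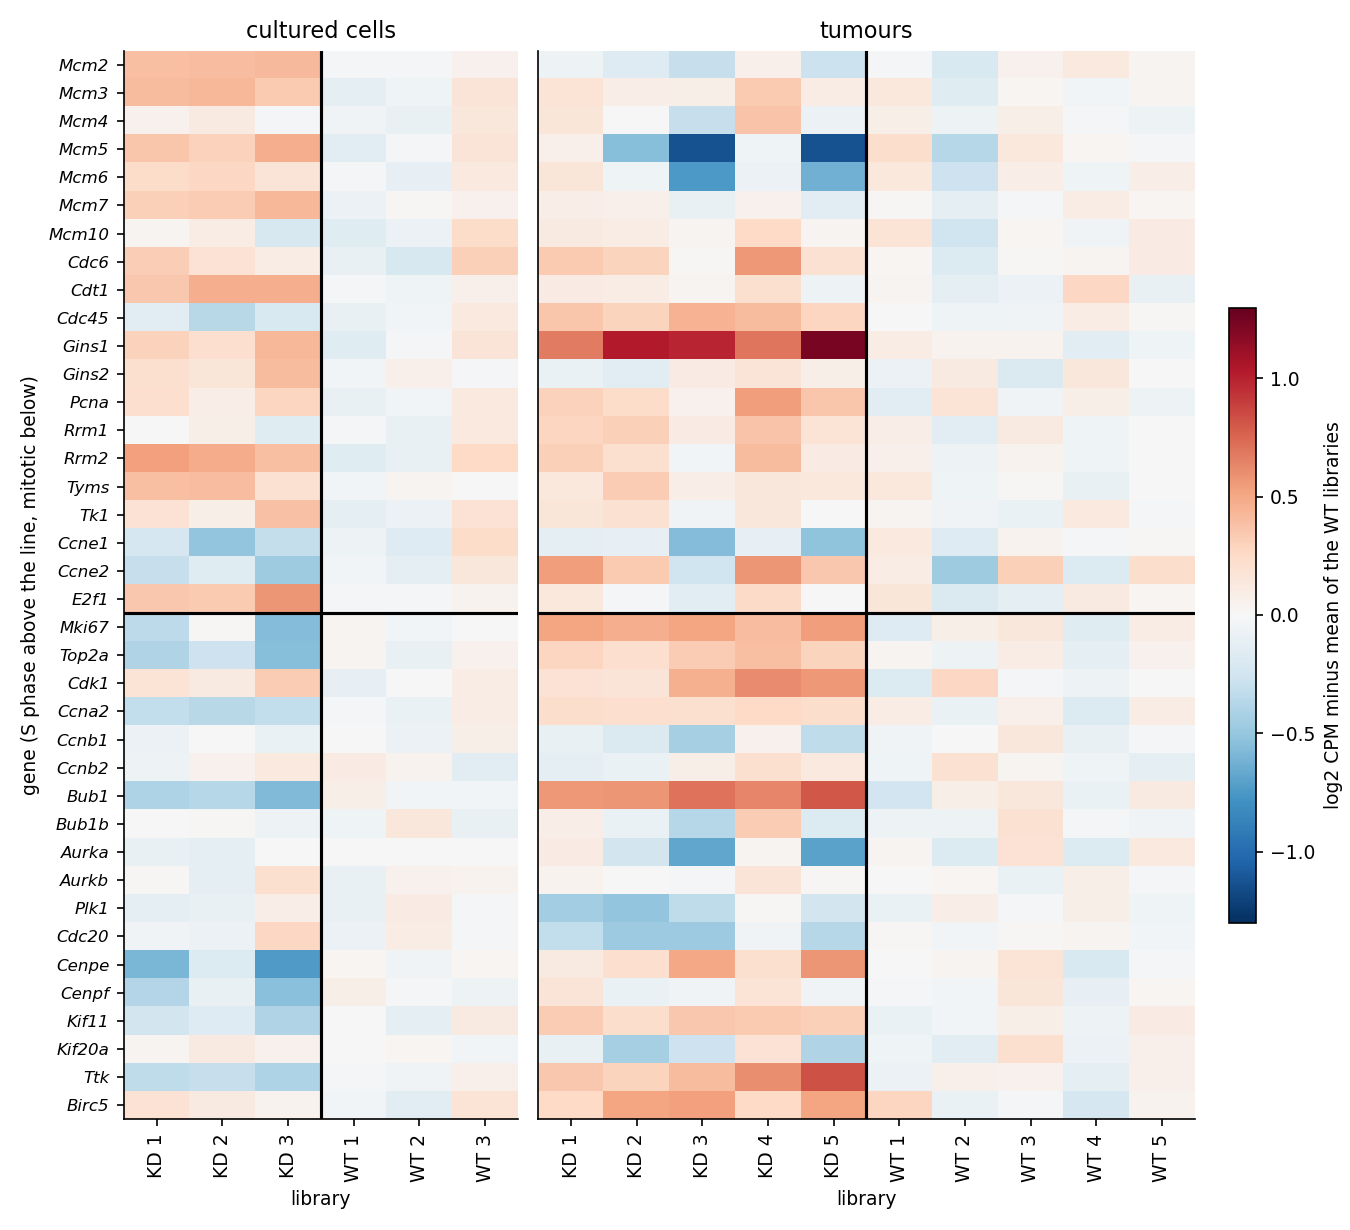
Log2 CPM of each gene in each library minus its mean over the control libraries of the same part, red for higher and blue for lower, knockdown left of control. Gins1 and Bub1 were higher in all 5 knockdown tumours, and Mcm5, Mcm6 and Aurka were lowest in knockdown tumours 3 and 5.

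Whether the knockdown effect differed between tumours and culture was tested as an interaction over all 16 libraries. The difference passed in 11 of the 38 genes, 10 with a more positive effect in tumours (Bub1, Ttk, Cenpe, Mki67, Top2a, Gins1, Cdc45, Kif11, Ccna2 and Cenpf) and 1 with a more negative effect (Mcm2), where 22.7% of 12581 genes passed, 12.7% positive and 9.95% negative. By class, 8 of 18 mitotic genes were positive and 0 negative (1 negative at an unadjusted p below 0.05 and 0 by DESeq2), and 2 of 20 S phase genes were positive and 1 negative. Bub1 had a difference of 1.15 (SE 0.14, adjusted p = 5.15e-05), being lower in all knockdown cells and higher in all knockdown tumours. Differences were 0.89 (SE 0.16) for Ttk, 0.86 (SE 0.18) for Cenpe, 0.81 (SE 0.16) for Mki67, 0.75 (SE 0.13) for Top2a and 0.60 (SE 0.12) for Ccna2. Among S phase genes they were 0.68 (SE 0.19) for Gins1, 0.64 (SE 0.12) for Cdc45 and -0.50 (SE 0.13, adjusted p = 0.00942) for Mcm2. Mcm5 had a more negative value that did not pass (-0.82, SE 0.30, adjusted p = 0.0568). Cenpf (0.41, adjusted p = 0.0445) passed only when the library left out was knockdown tumour 2, 3 or 5, control tumour 3 or knockdown cells 2. Gins1 did not pass without control cells 3 (0.58, adjusted p = 0.0535).

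Calls in the 2 knockdown comparisons, which share no library, were also set side by side. Bub1, Ccna2, Cenpe, Top2a and Ttk passed lower in culture and higher in tumours, which is 5 of the 5 members that passed lower in culture and 5 of the 15 that passed higher in tumours. Rrm2 passed higher in both, 1 of the 6 members that passed higher in culture. Over 11762 genes tested in both parts, 103 (0.876%) passed lower in culture and higher in tumours, which is 15.6% of those lower in culture and 4.4% of those higher in tumours, and 120 (1.02%) passed higher in both, which is 27.7% of those higher in culture.

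The GC content of a transcript ran along with these fold changes. Over the 38 genes, Spearman's rho between the GC content of the longest transcript and the log2 fold change was 0.571 in culture and -0.598 in tumours, and -0.729 for the interaction. Over all genes tested with an annotated length, rho was 0.327, -0.405 and -0.537. With the length of the longest transcript in place of GC content, rho was -0.253, 0.18 and 0.256 over the 38 genes. Over all genes it was -0.392, -0.09 and 0.172. These are descriptions across genes that share their libraries. Mitotic genes had a median GC content of 46.98% and S phase genes of 49.33%, and Bub1 (41.04%), Cenpe (42.95%), Ttk (43.02%) and Top2a (43.36%) were among the lowest. With GC content and length corrected by an offset per library, an alternative chosen after seeing the data, 16 of the 38 genes passed in culture (12.9% of all genes, 5.73% higher and 7.17% lower), including 10 of the 11 called without it, Cdt1 being lost. Those 16 were 8 higher and 2 lower among S phase genes, Cdc45 (-0.28) and Ccne1 (-0.45), and 1 higher (Cdk1, 0.30) and 5 lower among mitotic genes. In tumours 14 passed (30.9% of all genes, 16.6% higher and 14.3% lower), and Pcna, Rrm1, Rrm2, Ccna2, Plk1, Cdc20, Cenpe and Kif11 were no longer called. Those 14 were 7 higher and 0 lower among S phase genes, and 6 higher and 1 lower among mitotic genes. The 5 genes called in tumours with the correction and not without it were Mcm3 (0.29), Cdt1 (0.295), E2f1 (0.30) and Tk1 (0.18), which were higher, and Ccnb1 (-0.39), which was lower. Mcm3, E2f1 and Cdk1 (0.43 in tumours) passed higher in both culture and tumours under the correction. Of the 11 interaction calls 8 were kept (12.8% of all genes passed, 6.88% positive and 5.91% negative), Bub1 at 0.75 (SE 0.10, adjusted p = 1.4e-04), while Mcm2, Cenpf and Kif11 lost theirs. Bub1 kept its call on both sides, at -0.37 in culture and 0.38 in tumours, as did Top2a (-0.25 and 0.18) and Ttk (-0.30 and 0.28). Cenpe and Ccna2, also lower in culture and higher in tumours before the correction, kept their calls in culture only. Cdc45 passed lower in culture and higher in tumours (0.33) under the correction.

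**Figure D5:**
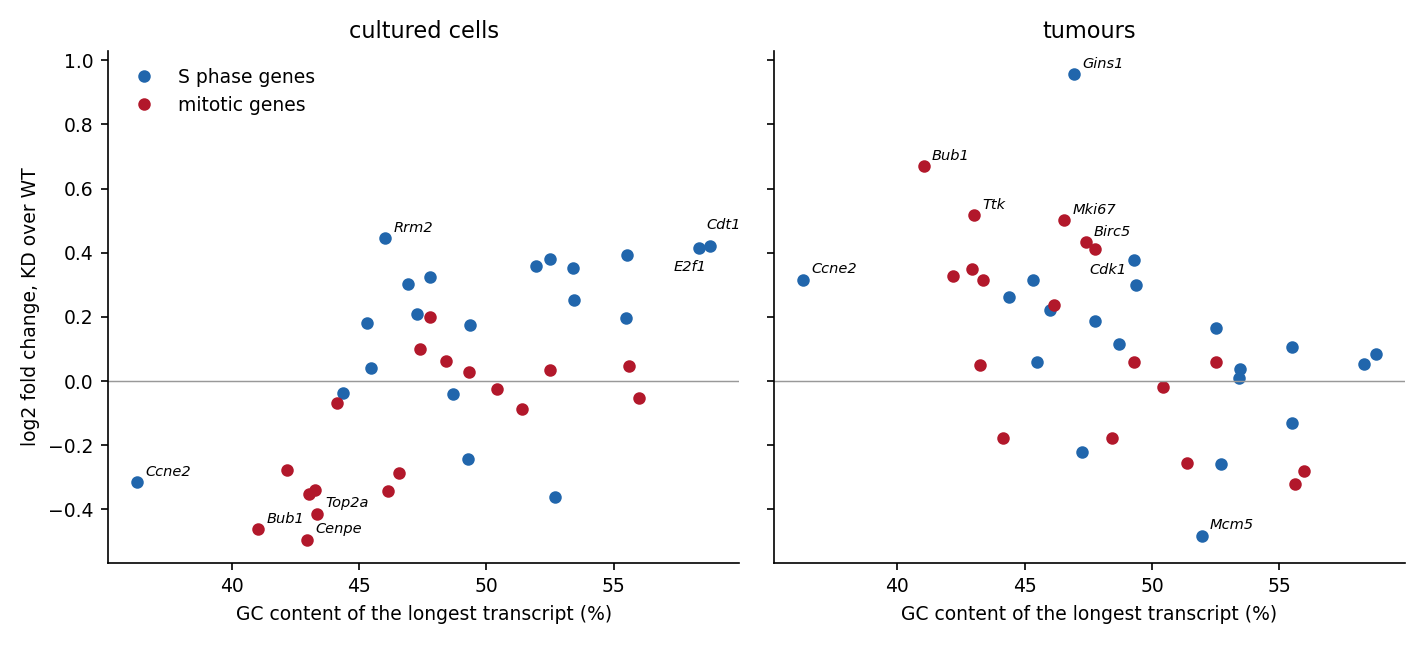
Log2 fold change, knockdown over control, of the 38 genes against the GC content of the longest transcript, in cultured cells (left) and tumours (right). Genes of low GC content such as Bub1 lay low in culture and high in tumours (Spearman's rho 0.571 and -0.598).

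Other genes of the same machinery were followed as lists. Of 50 further replication genes, 1 was higher and 1 lower in culture, where 3.76% of all genes were higher and 5.57% lower, namely Timeless of the fork protection complex (0.42, SE 0.10) and the origin recognition subunit Orc3 (-0.43, SE 0.10). In tumours, where 20.1% of all genes were higher and 18.3% lower, 31 of the 50 were higher and 0 lower (0 lower at an unadjusted p below 0.05 and 0 by DESeq2), with a median of 0.37 beside 0.02 over all genes. Dbf4, the activator of the origin kinase Cdc7, stood at 81.4 to 99.1 CPM in knockdown tumours and 51.1 to 63.0 in control tumours (0.69, SE 0.09, adjusted p = 2.2e-04). Dtl, an adaptor for destruction of Cdt1, stood at 48.2 to 58.7 CPM against 31.8 to 35.8 (0.62, SE 0.08) and Pola1, of polymerase alpha, at 43.9 to 52.3 against 29.5 to 38.6 (0.57, SE 0.08). With GC content and length corrected, 30 of the 50 passed higher and 0 lower, beside 16.6% and 14.3% of all genes.

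Of 58 further mitotic genes, 0 were higher and 3 lower in culture, beside 3.76% and 5.57% of all genes (3 higher at an unadjusted p below 0.05 and 0 by DESeq2), namely the microtubule depolymerase Kif2c (-0.43), the cytokinesis motor Kif14 (-0.49) and the kinase Melk (-0.41). In tumours 33 were higher and 3 lower, beside 20.1% and 18.3% of all genes, with a median of 0.31. The centromere proteins Cenpk (11.9 to 18.9 CPM in knockdown tumours and 6.41 to 7.89 in control tumours, 1.04, SE 0.14) and Cenpi (21.6 to 27.1 against 11.9 to 12.7, 0.99, SE 0.09) stood first, with the condensin subunit Smc4 (0.69, SE 0.10) and the cytokinesis scaffold Anln (0.54, SE 0.08). Ncapd2, also of condensin (-0.37), Kif18b (-0.30) and the checkpoint protein Bub3 (-0.23) were the 3 that fell. After correcting GC content and length, 22 were higher and 1 lower, beside 16.6% and 14.3% of all genes.

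Upstream regulators went both ways. Of 25 transcription factors, G1 drivers and pocket proteins tested in culture, 3 were higher and 3 lower, beside 3.76% and 5.57% of all genes. The higher were Ccnd1 (cyclin D1, 974, 967 and 964 CPM in knockdown cells and 707, 754 and 709 in control cells, 0.41), Myc (206, 208 and 221 against 152, 166 and 156, 0.41) and the MuvB subunit Lin37 (0.61). The 3 that were lower were Mybl2, which encodes B-Myb (69.0, 67.1 and 74.3 CPM against 83.9, 87.7 and 105, -0.40, SE 0.11, adjusted p = 0.0378), the pocket protein Rbl1 (-0.42) and the late repressor E2f8 (-0.37). Foxm1 overlapped in culture (183 to 213 CPM against 199 to 207) and in tumours (127 to 161 against 126 to 140) and passed in neither. In tumours 9 of 26 were higher and 2 lower, beside 20.1% and 18.3% of all genes, the higher led by Skp2 (0.70), which marks Cdk inhibitors for destruction, Rbl1 (0.60), Lin54 (0.57) and Rb1 (0.63), with Myc at 169 to 235 CPM against 112 to 173 (0.51). Ccnd2 (-0.76, SE 0.13) and E2f4 (-0.35) were lower. Ccnd1 in tumours ranged from 301 to 665 CPM under knockdown, with replicates 3 and 5 at 301 and 319, and from 326 to 477 in controls. Mybl2, at 45.1 to 79.1 CPM against 55.9 to 79.6, was likewise lowest in knockdown replicates 3 and 5.

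Of 24 genes listed as brakes on the cycle or their regulators, 5 were higher and 0 lower in culture, beside 3.76% and 5.57% of all genes. At an unadjusted p below 0.05, 2 were lower, and 1 was by DESeq2. Gadd45b (0.84), Sesn2 (0.50), Plk2 (0.47) and Trp53 (0.38) were among the higher. Cdkn1a, the p21 inhibitor, overlapped in culture at 21.7 to 28.9 CPM against 21.5 to 31.6, as did Cdkn1b, the p27 inhibitor, at 58.1 to 66.3 against 60.9 to 73.2. In tumours 5 of the 24 were higher and 3 lower, shares near the 20.1% and 18.3% of all genes. Among the higher were Fbxo5 (0.37), an inhibitor of the anaphase-promoting complex, Pkmyt1 (0.42), which inhibits Cdk1, Ccng1 (0.32) and Mdm2 (0.23), the ubiquitin ligase of p53. The lower were Cdkn1a (27.8 to 40.6 CPM against 39.6 to 48.0, -0.30, adjusted p = 0.0446, a call lost without any 1 of 6 libraries), Cdkn2b (-0.54) and Sesn1 (-0.52). Cdkn1b overlapped there (33.4 to 43.5 CPM against 29.7 to 38.4). Of a list of 12 histone, Hmgb2, stathmin and tubulin symbols 4 were in the table. Hmgb2 and Stmn1 were higher in culture (0.43 and 0.45) and in tumours (0.52 and 0.36), and Tuba1b (-0.63) and Tubb5 (-0.31) lower in tumours. With GC content and length corrected, 1 of the 4 was higher and 0 lower in tumours, beside 16.6% and 14.3% of all genes. Tuba1b stood at 919 and 998 CPM in knockdown tumours 3 and 5, against 1540 to 2150 in the other knockdown tumours.

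Control tumours were set against control cells to place the levels. Mitotic genes were lower in tumours in 17 of 18 cases and higher in 0 (0 at an unadjusted p below 0.05 and 0 by DESeq2), with a median log2 fold change of -1.315, and S phase genes were lower in 14 of 20 and higher in 1, with a median of -0.57. Over all 13944 genes tested 81.2% passed, 47% higher and 34.2% lower, with a median of 0.22. Without overlap, 14 S phase and 17 mitotic genes were lower and 1 S phase gene was higher, where 78.2% of all genes did not overlap, 41.7% higher and 36.5% lower. Bub1 stood at 25.5 to 33.7 CPM in control tumours and 161 to 174 in control cells (-2.33, SE 0.09), Ccne2 at 6.74 to 11.5 against 45.7 to 55.0 (-2.27, SE 0.14) and Rrm2 at 115 to 126 against 394 to 524 (-1.76, SE 0.09). Gins2 was the S phase gene that rose, at 54.4 to 68.5 CPM in control tumours and 41.2 to 44.2 in control cells (0.67, SE 0.10). Mcm5, Tyms, Tk1, Ccne1, E2f1 and Birc5 did not pass, E2f1 standing at 62.1 to 78.5 CPM in control tumours and 74.8 to 78.4 in control cells. With GC content and length corrected, Tk1 (-0.95), E2f1 (-0.69) and Ccne1 (-0.56) passed lower and Tyms (0.31) and Birc5 (0.25) passed higher in that contrast, while Mcm6 (0.19) no longer passed. Growth in a mouse, RNA from host cells and any difference in processing between the parts cannot be told apart in this contrast. GC content moved with it as well (Spearman's rho 0.749 over the 38 genes and 0.459 over all genes), and after correction the medians were -0.91 for S phase and -0.86 for mitotic genes, with 74.3% of all genes called, 43.5% higher and 30.9% lower. Per kilobase of exon, Rrm2 and Pcna had the highest mean levels of the 38 genes in culture, 219 and 151 CPM per kilobase in knockdown cells and 160 and 132 in control cells. In tumours Pcna led, with 77.4 CPM per kilobase under knockdown and 62.6 in controls.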

How the data were processed

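RNA was sequenced from 16 samples, and the 2 CRISPR screen libraries of the series were not analysed here. The values used are whole-number read counts per gene symbol, as deposited by the authors. HTSeq 0.13.5 and STAR 2.7.1a stand among the tools of the submitters' processing notes, beside SAMtools 1.3.1, FastQC 0.11.9, Cufflinks 0.17.3 and cutadapt 1.18, and the notes give none of them a role. They name a human build although the symbols are mouse; the mouse build and the strand setting are not given in the sources used here, so reads of overlapping genes cannot be told apart. Extraction used Trizol and mRNA beads, per the labels' protocols.

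Each comparison was fitted over all genes with edgeR 4.0.16 in R 4.3.3 (TMM, filterByExpr with a minimum of 10 counts, robust quasi-likelihood test, two-sided, Benjamini-Hochberg adjustment, threshold 0.05), using only the groups it concerns; the interaction used all 16 libraries. Adjusted p-values in the text come from these fits, and each SE was obtained from the fold change and its F statistic. All 38 genes passed the filter in every comparison. CPM used library totals, and levels per kilobase used GENCODE M21 exon lengths, which 14995 of 15596 symbols (96.1%) matched. Alternatives were DESeq2 1.42.0, other scalings and filters, a replicate block and leaving out each library; the GC content and length correction (splines of 4 degrees of freedom), leaving out knockdown tumours 3 and 5, and keeping only genes with counts in both parts were added after seeing the data. The genes and lists were chosen with earlier results of these data known. Named from each list were up to 4 called genes of smallest p per direction, with Cdkn1a, Cdkn1b, Foxm1, Mybl2, Myc and Ccnd1 in any case. One gene that this rule names is not reported here. Scripts were tested on simulated data.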

Additional observations from a re-analysis of the deposited data

Results flagged for a closer look

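The effect of knockdown differed between tumours and culture, by the test of the difference itself, in 11 of the 38 genes. On the log2 scale, tumours minus culture, the differences were -0.501 for Mcm2, 0.64 for Cdc45, 0.677 for Gins1, 0.806 for Mki67, 0.746 for Top2a, 0.602 for Ccna2, 1.152 for Bub1, 0.862 for Cenpe, 0.408 for Cenpf, 0.624 for Kif11 and 0.891 for Ttk. GC content moved with these values, and those of Mcm2, Cenpf and Kif11 did not pass once GC content and length were corrected together. The parts of GC content and length in that change were not told apart.

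In 82 checks for a library far from the other 4 of its tumour group, 3 stood out, where chance gives about 1 in 20. Knockdown tumour 2 had 41.1 CPM of Tyms, against 34.7 to 36.2 in the other knockdown tumours. Control tumour 3 had 73.1 CPM of Bub1b, against 61.0 to 62.9 in the other control tumours. Control tumour 2 had a mean log2 CPM over S phase genes of 5.936, against 6.083 to 6.135 in the other control tumours.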

How the results depend on the processing

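No gene among the 38 that was called in culture, in tumours or in the interaction changed sign under any alternative run. In culture, 508 genes passed with a replicate block in place of 1111, with 0 S phase genes higher in place of 6 and 1 mitotic gene lower in place of 5. The labels do not say whether replicate numbers pair the samples. Deviations of same-numbered knockdown and control libraries from their group means correlated at 0.052, -0.189 and -0.154 in culture and at -0.203 to 0.158 in tumours. Some libraries matched their own number best and others did not, which cannot settle the pairing with so few libraries. Leaving out 1 library at a time in culture gave 290 to 1531 genes, 0 to 7 S phase genes higher, 0 to 5 mitotic genes lower, and medians of 0.211 to 0.316 for S phase and -0.115 to -0.067 for mitotic genes. Correcting GC content and length together gave 2 S phase genes lower and 1 mitotic gene higher in culture, in place of 0 each. Below, GC content corrected stands for this joint correction of GC content and length. The mitotic difference in culture, -0.145 as a mean of logs, was -0.198 as the log2 of summed CPM. In tumours, S phase genes lower numbered 1 by DESeq2, 1 with the replicate block and 0 to 2 on leaving out 1 library, in place of 0. Mitotic genes lower, 2 as reported, numbered 1 without knockdown tumours 3 and 5, 1 with GC content corrected and 1 to 4 on leaving out 1 library. In the interaction, S phase genes lower, 1 as reported, numbered 2 with library totals, 2 with the stricter filter, 3 by DESeq2, 2 with the replicate block, 0 with GC content corrected and 1 to 4 on leaving out 1 library. S phase genes higher, 2 as reported, numbered 4 by DESeq2 and 1 to 3 on leaving out 1 library, and mitotic genes lower 0 to 1. Interaction calls over all genes, 2850 as reported, ran from 1667 to 3359 on leaving out 1 library and numbered 1610 with GC content corrected; the mitotic median of 0.294 ran from 0.213 to 0.334, was 0.215 without knockdown tumours 3 and 5 and 0.179 with GC content corrected. For control tumours against control cells, medians of -0.572 (S phase) and -1.315 (mitotic) were -0.687 and -1.429 with library totals and -0.913 and -0.861 with GC content corrected, the mitotic one running from -1.382 to -1.284 on leaving out 1 library. S phase genes higher, 1 as reported, numbered 1 to 2 on leaving out 1 library and 2 with GC content corrected, which also gave 1 mitotic gene higher. In that contrast the correction reversed Mcm6 (0.19), Cdkn1b (0.092), Ube2s (-0.246), Cenpm (-0.05), Cdk4 (-0.127), Ccng1 (0.098), Stmn1 (-0.116) and Hmgb2 (0.6). Of genes not called before, it turned the sign of Tk1 (-0.954), E2f1 (-0.687), Ccne1 (-0.562) and Birc5 (0.252), which then passed. The cause of these changes was not tested.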
